A study of Mus musculus with 7 samples.

Results

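The genes for the replication-dependent histones were examined in chromatin immunoprecipitation sequencing (ChIP-seq) peak lists for Pygo2 and β-catenin. The members are the protein-coding genes of the mouse RefSeq table (GRCm38.p6, the assembly also called mm10) with the symbols H1f1 to H1f6, H4f16, or H2ac, H2bc, H3c or H4c and a number. They come to 64 of the 21887 protein-coding genes on nuclear chromosomes: 6 H1, 17 H2A, 16 H2B, 12 H3 and 13 H4 genes. The individual genes were selected by symbol, but the family itself was picked from earlier results of these lists, where Pygo2 peaks at H4c1, H4c8 and H4f16 and overlapping peaks at H4c3 were among the first-listed. Every count below is therefore a description of the peak positions, with no test, and the main counts stand beside the same share over all genes.

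The tissue was wild-type branchial arch, dissected from mouse embryos 10.5 days after mating, the swellings that form parts of the face and neck. About 200 arches were cross-linked with 1.5 mM EGS, a protein cross-linker, for 40 min, and with 1% formaldehyde during the last 20 min. Of the 7 libraries, the Pygo2 ChIP titled Pygo2-BA2 and the β-catenin ChIP titled b-cat-BA2 have peak lists here. The titles leave the meaning of BA1 and BA2 open, so both are used here only as names. Both lists were called against the IgG library of BA1, per the file headers. The names of both lists pair IgG with BA2 instead, but the only IgG library among the 7 is that of BA1. The headers were followed, and which control was used could not be checked further. The Pygo2 list holds 7150 peaks from 15009636 tags and the β-catenin list 1079 peaks from 13672937 tags. A peak needed at least 10 tags in the Pygo2 library or 11 in the β-catenin library, and the means were 15.5 and 14.6 tags per peak. Each list is 1 library of pooled embryos, so no value has a replicate error. Both lists share the control library, and the cells of the arches that gave each peak cannot be told apart.

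Replication-dependent histone genes supply the histones that package newly copied DNA. H2A, H2B, H3 and H4 form the core of the nucleosome, and H1 binds the linker DNA between nucleosomes. The genes are short and mostly intronless, lie in clusters, are transcribed mainly in S phase, and give mRNAs that end in a stem-loop in place of a poly(A) tail. β-catenin is the transcriptional effector of canonical Wnt signalling. Pygo2 is a PHD-finger protein that joins it through Bcl9, and its PHD finger is known to bind the methylated tail of histone H3.

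The sequences below show the promoters on which the description turns, from the RefSeq promoter table (GRCm38.p6). Each line gives the 250 bases before the annotated gene start and the start base itself, 5′ to 3′ on the gene's strand, 251 bases in all. H4c1, H4f16 and H4c8 have the earliest-listed Pygo2 peaks of the family, H4c3 has the earliest-listed β-catenin peak, H4c17 has no peak nearby, and the H2bc11 window spans the whole interval between the divergent starts of H2ac11 and H2bc11. In the H4 promoters the capitals mark GGTCCG and the GC box GGGCGG, and in the H2bc11 promoter the CCAAT box, on either strand.
H4c1: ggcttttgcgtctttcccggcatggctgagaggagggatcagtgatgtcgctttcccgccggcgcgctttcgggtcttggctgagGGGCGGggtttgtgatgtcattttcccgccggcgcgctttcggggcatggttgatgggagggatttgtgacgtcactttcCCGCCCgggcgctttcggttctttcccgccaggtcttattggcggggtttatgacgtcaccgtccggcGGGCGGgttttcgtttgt
H4f16: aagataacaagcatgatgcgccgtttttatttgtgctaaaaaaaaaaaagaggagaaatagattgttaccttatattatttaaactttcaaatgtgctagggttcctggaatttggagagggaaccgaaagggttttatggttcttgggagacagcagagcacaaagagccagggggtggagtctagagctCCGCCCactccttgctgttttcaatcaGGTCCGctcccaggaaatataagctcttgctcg
H4c8: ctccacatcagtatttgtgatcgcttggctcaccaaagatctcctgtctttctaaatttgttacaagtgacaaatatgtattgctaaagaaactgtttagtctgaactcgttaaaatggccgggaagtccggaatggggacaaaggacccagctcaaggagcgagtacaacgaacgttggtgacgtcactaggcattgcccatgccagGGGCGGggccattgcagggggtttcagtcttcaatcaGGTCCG
H4c3: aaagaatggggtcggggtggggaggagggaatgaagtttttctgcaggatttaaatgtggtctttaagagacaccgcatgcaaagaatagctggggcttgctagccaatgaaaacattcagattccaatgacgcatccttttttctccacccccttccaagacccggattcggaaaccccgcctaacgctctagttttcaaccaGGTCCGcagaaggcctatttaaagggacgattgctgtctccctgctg
H4c17: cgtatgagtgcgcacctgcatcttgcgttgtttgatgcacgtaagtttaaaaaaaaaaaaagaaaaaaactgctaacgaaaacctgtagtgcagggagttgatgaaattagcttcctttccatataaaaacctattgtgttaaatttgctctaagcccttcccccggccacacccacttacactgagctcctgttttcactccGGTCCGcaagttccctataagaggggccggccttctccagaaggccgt
H2bc11: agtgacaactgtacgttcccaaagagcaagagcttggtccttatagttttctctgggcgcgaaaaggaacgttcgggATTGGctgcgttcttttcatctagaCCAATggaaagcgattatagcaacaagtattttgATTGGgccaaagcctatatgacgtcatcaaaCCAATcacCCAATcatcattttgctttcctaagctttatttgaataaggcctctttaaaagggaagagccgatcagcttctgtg

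These windows lie at chr13:23761249-23761499 (H4c1, minus strand), chr6:136804431-136804681 (H4f16, minus), chr13:23530794-23531044 (H4c8, plus), chr13:23698458-23698708 (H4c3, minus), chr13:21811496-21811746 (H4c17, plus) and chr13:22042948-22043198 (H2bc11, plus). The Pygo2 peak at H4c1 (chr13:23761384-23761550) covers the 5′ part of its window. At H4c3 the Pygo2 peak (chr13:23698435-23698601) and the β-catenin peak (chr13:23698469-23698637) both fall on the printed stretch. At H2bc11 the Pygo2 peak (chr13:22042965-22043131) and the β-catenin peak (chr13:22042927-22043095) do so too. The windows of H4c17 and H4c18, the next H4 gene along the chromosome, share a run of 285 bases out of 300.

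A Pygo2 peak lay at most histone genes. The centre of a peak was within 1 kb of either gene end at 53 of the 64 members (82.8%), while 16.5% of all protein-coding genes (3615 of 21887) had such a peak. The median distance from gene end to nearest Pygo2 peak centre was 0.100 kb for the members and 65.2 kb for all other protein-coding genes. Of the 53 members, 32 had the centre within 100 bp and 48 within 250 bp of an end. In all, 56 Pygo2 peaks stood within 1 kb of a member. Of these, 32 were near 1 member, 21 near 2 and 3 near 3, so the genes are not independent of each other.

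β-catenin peaks were fewer and were also near histone genes. Within 1 kb of a gene end, 19 of the 64 members (29.7%) had a β-catenin peak centre, while 2.01% of all protein-coding genes (440 of 21887) had one. The median distance was 5.71 kb for the members and 665 kb for all other protein-coding genes. Peaks of both proteins were within 1 kb of 18 members (28.1%), compared with 1.35% of all protein-coding genes (295). H3c4 was the single member with a peak of β-catenin alone in this window, and 10 members had neither. The 19 members drew on 13 β-catenin peaks, of which 8 were near 1 member, 4 near 2 and 1 near 3.

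**Figure D1:**
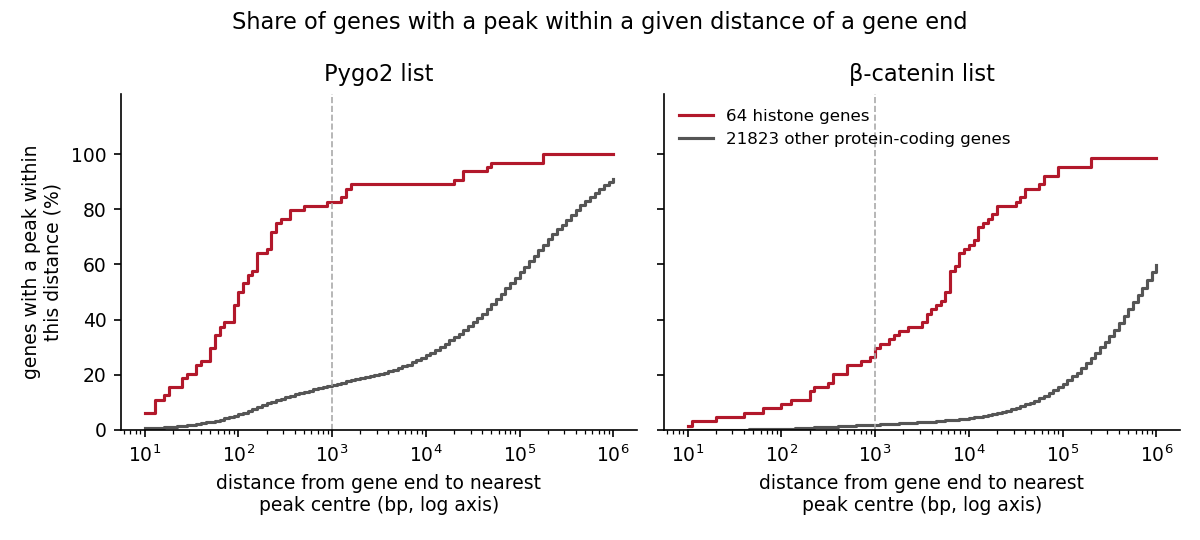
Share of genes (%) with a peak centre within a given distance (bp, log axis) of a gene end, for the 64 histone genes (red) and the 21823 other protein-coding genes (grey), in the Pygo2 list (left) and the β-catenin list (right); the dashed line marks 1 kb. At 1 kb the red curve stands at 82.8% for Pygo2 and 29.7% for β-catenin, and the grey curve at 16.3% and 1.93%.

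Genes beside the clusters and other short genes were counted in the same way. Of 50 other protein-coding genes within 200 kb of a run of members, 4 (8.00%) had a Pygo2 peak within 1 kb, namely Otud7b, Mtmr11, Atf7ip and Abt1, and only Mtmr11 (2.00%) had a β-catenin peak. Of 1518 other protein-coding genes up to 1 kb long, 13 (0.856%) had a Pygo2 peak and 2 (0.132%) a β-catenin peak. Neither set was matched to the members in expression, which was not measured here.

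H4 genes, whose product is the most uniform of the core histones, had the earliest-listed Pygo2 peaks. The early places at H4c1, H4c8 and H4f16 were among the results from which the family was picked, so this restates that choice in part. The deposited lists carry a score of 1 for every peak, so the place in the list is the only order they hold, and the headers do not say how the lists were sorted. At places such as positions 126 to 128 and 913 to 915, consecutive Pygo2 peaks were all on chromosome 13 in order of coordinate. Exact positions within such stretches may thus follow the chromosome. At H4c1 the peak was at position 5 of 7150 and centred 218 bp upstream of the start. At H4f16, the lone member on chromosome 6, the peak was at list position 6 and 55 bp downstream of the start. H4c8 had a peak at position 8, 33 bp downstream, and a second at position 67, 89 bp from its other end. Then came H4c6 (position 47, 17 bp from an end), H4c14 (position 78, 51 bp) and H4c3 (position 108, 60 bp). H4c4 (position 428, 46 bp), H4c11 (480, 23 bp), H4c12 (556, 88 bp), H4c2 (560, 49 bp) followed. H4c9 had a peak at position 482, 25 bp from its start, and another at position 1049, 6 bp from its other end. Positions 5, 6 and 8 are thus those of peaks at H4 genes, and the first peak nearest to a gene of another type was at H2bc18, position 42. Thus 11 of the 13 H4 genes had a Pygo2 peak within 1 kb, at a median distance of 51 bp over the 13. H4c17 and H4c18 did not: their nearest Pygo2 peak was 24417 bp and 44463 bp away.

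β-catenin peaks stood within 1 kb of 5 of the 13 H4 genes. The peak was 2 bp from an end of H4c11, 19 bp from H4c12, 95 bp from H4c3, 306 bp from H4c14 and 468 bp from H4c8. At H4c3, H4c11 and H4c12 it overlapped the Pygo2 peak. At H4c8 it lay upstream, 468 bp from the start, whereas the Pygo2 peak sat just inside the gene, and the peaks did not overlap. H4c1, H4c6 and H4f16 had early-listed Pygo2 peaks without a β-catenin peak near them, the nearest being 9746 bp, 11689 bp and 3698354 bp away.

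The H2A genes showed peaks at 14 of 17 members for Pygo2 and at 7 of 17 for β-catenin. The closest Pygo2 centres were 8 bp from H2ac4, 13 bp from H2ac13 and 15 bp from H2ac8. The farthest were 45695 bp from H2ac24 and 171949 bp from H2ac1, a gene of the testis-specific H2A that is used in germ cells. β-catenin centres lay 39 bp from H2ac4, 62 bp from H2ac11, 181 bp from H2ac20, 341 bp from H2ac18, 353 bp from H2ac7, 707 bp from H2ac21 and 917 bp from H2ac10. For H2ac10 both peaks lay closer to its neighbour H3c8, at 152 bp for Pygo2 and 123 bp for β-catenin.

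Among H2B genes, 14 of 16 had a Pygo2 peak and 3 of 16 a β-catenin peak. Pygo2 centres were 9 bp from H2bc18, 18 bp from H2bc4 and 52 bp from H2bc6, and the peak at H2bc18 was at list position 42. H2bc23 (19083 bp) and H2bc1 (171237 bp), the partner of H2ac1 in the testis-specific pair, were the farthest. The β-catenin centres were 11 bp from H2bc21, 187 bp from H2bc11 and 223 bp from H2bc6. The β-catenin peak by H2bc21 was also within 1 kb of H2ac20 and H2ac21 on chromosome 3.

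H3 genes had a Pygo2 peak at 10 of 12 members and a β-catenin peak at 3. The closest Pygo2 centres were 7 bp from H3c13, 13 bp from H3c3 and 37 bp from H3c15, and among the nearest peaks of each H3 gene the one by H3c6 (49 bp) was the earliest, at position 126. The peaks at positions 5 and 42, nearest to H4c1 and H2bc18, were also within 1 kb of H3c1 and H3c13. H3c4 (1354 bp) and H3c14 (1509 bp) were just beyond 1 kb. β-catenin centres were 123 bp from H3c8, 495 bp from H3c4 and 972 bp from H3c6.

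For the linker histone H1, 4 of 6 genes were within 1 kb of a Pygo2 centre. The centre lay 12 bp from an end of H1f5, 33 bp from H1f3, 94 bp from H1f4 and 124 bp from H1f2. H1f1 was 1180 bp away and H1f6, the testis-specific linker histone, 1356 bp, and in both cases the nearest peak was closer to another member, H3c1 or H4c3. A β-catenin peak was near H1f4 (876 bp), which shares it with H2bc6, and the nearest to the other H1 genes were 2008 to 29298 bp away. The shares with a Pygo2 peak were 84.6% for H4, 82.4% for H2A, 87.5% for H2B, 83.3% for H3 and 66.7% for H1. For β-catenin they were 38.5% for H4, 41.2% for H2A, 18.8% for H2B, 25% for H3 and 16.7% for H1. The groups are small and neighbouring genes share peaks, and the difference between types was not tested.

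**Figure D2:**
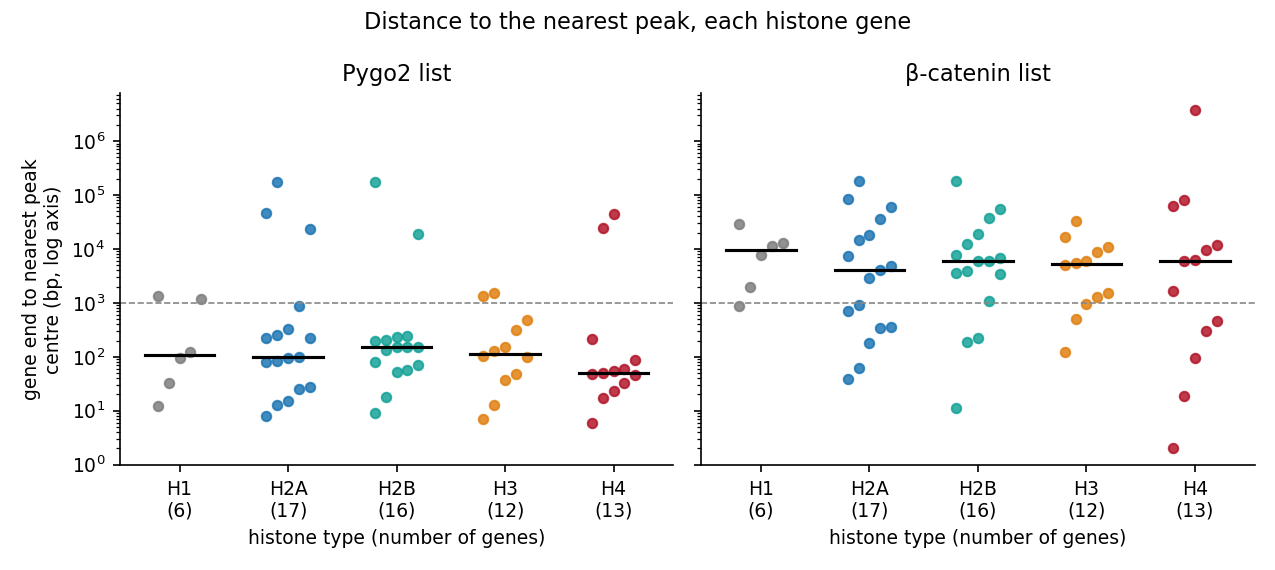
Distance (bp, log axis) from the nearer gene end to the nearest peak centre for each histone gene, by histone type, with the Pygo2 list on the left and the β-catenin list on the right; bars are medians and the dashed line is 1 kb. H4 genes have the lowest Pygo2 median, 51 bp, and the β-catenin medians of the types run from 4048 bp for H2A to 9534 bp for H1.

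The members just inside the 1 kb limit for Pygo2 were H2ac10 at 888 bp, H3c2 at 478 bp and H2ac18 at 321 bp. Just outside were H1f1 at 1180 bp, H3c4 at 1354 bp and H1f6 at 1356 bp. Between 1509 bp (H3c14) and 19083 bp (H2bc23) there was no member.

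The members fall into 6 runs when genes with gaps up to 100 kb are joined. On chromosome 13, 43 of 53 members had a Pygo2 peak within 1 kb and 14 a β-catenin peak. On chromosome 3 the counts were 9 and 5 of 10 members. On chromosome 6, H4f16 had a peak of Pygo2 alone. The largest run, chr13:23531044-23764412 from H4c8 to H1f1, holds 29 members in 233 kb, with a Pygo2 peak at 26 and a β-catenin peak at 10. Counted with 1 kb on either side, as for the other runs, it contained 29 Pygo2 peaks, and 27 of them were within 1 kb of a member. Both exceptions lay along the long transcript models of H2bc6 and H2bc4. All 7 of its β-catenin peaks were within 1 kb of a member.

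The run at chr3:96219885-96270192 spans 50.3 kb from H2ac21 to H2bc18 and held 10 Pygo2 and 4 β-catenin peaks, that is 19.1 and 7.65 peaks per 100 kb. Over the span of the mapped chromosomes the lists averaged 0.283 and 0.0427 peaks per 100 kb. All 10 Pygo2 peaks and 3 of the 4 β-catenin peaks were within 1 kb of a member. The compact run at chr13:22035122-22043658, with H2ac12, H2bc12, H4c9, H2ac11 and H2bc11, had a Pygo2 peak at each of its 5 genes and a β-catenin peak at H2ac11 and H2bc11.

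Peaks stopped part of the way through the run at chr13:21715711-21833475, from H2bc13 to H2ac24. Its first 12 genes had a Pygo2 peak within 1 kb, up to the peak between H2ac22 and H2bc22. The last 5 genes, H2bc23, H2ac23, H4c17, H4c18 and H2ac24, lie in 27.1 kb without a Pygo2 peak, inside a stretch of 228 kb that has none. H4bc24, a neighbouring gene which also carries the older symbol Hist1h2br and which the symbol rule leaves out, was 46.4 kb from a Pygo2 peak; it was noticed after the values were seen. The promoter windows of these 5 members share runs of 233 to 300 bases with a window elsewhere. Over the 59 members with a promoter window, 11 shared a run of at least 50 bases with another place in the table, and 5 of these had a Pygo2 peak within 1 kb. In the other 48 the longest run found was 40 bases, and 43 had a Pygo2 peak within 1 kb. H2ac18 and H2ac19, with a shared run of 219 bases, each had a peak, as did H3c15, whereas its copy H3c14 (231 bases) did not. Reads from near-identical copies can be hard to place, so values at these 11 genes are uncertain, and the part of this in the missing peaks was not tested.

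The pair H2bc1 and H2ac1, a run of its own at chr13:23933725-23934913, had no peak of either list within 171237 bp. For these testis-specific genes the longest run found in other promoter windows was 16 bases. The search did not compare coding sequence, so it cannot show whether reads there are hard to place.

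**Figure D3:**
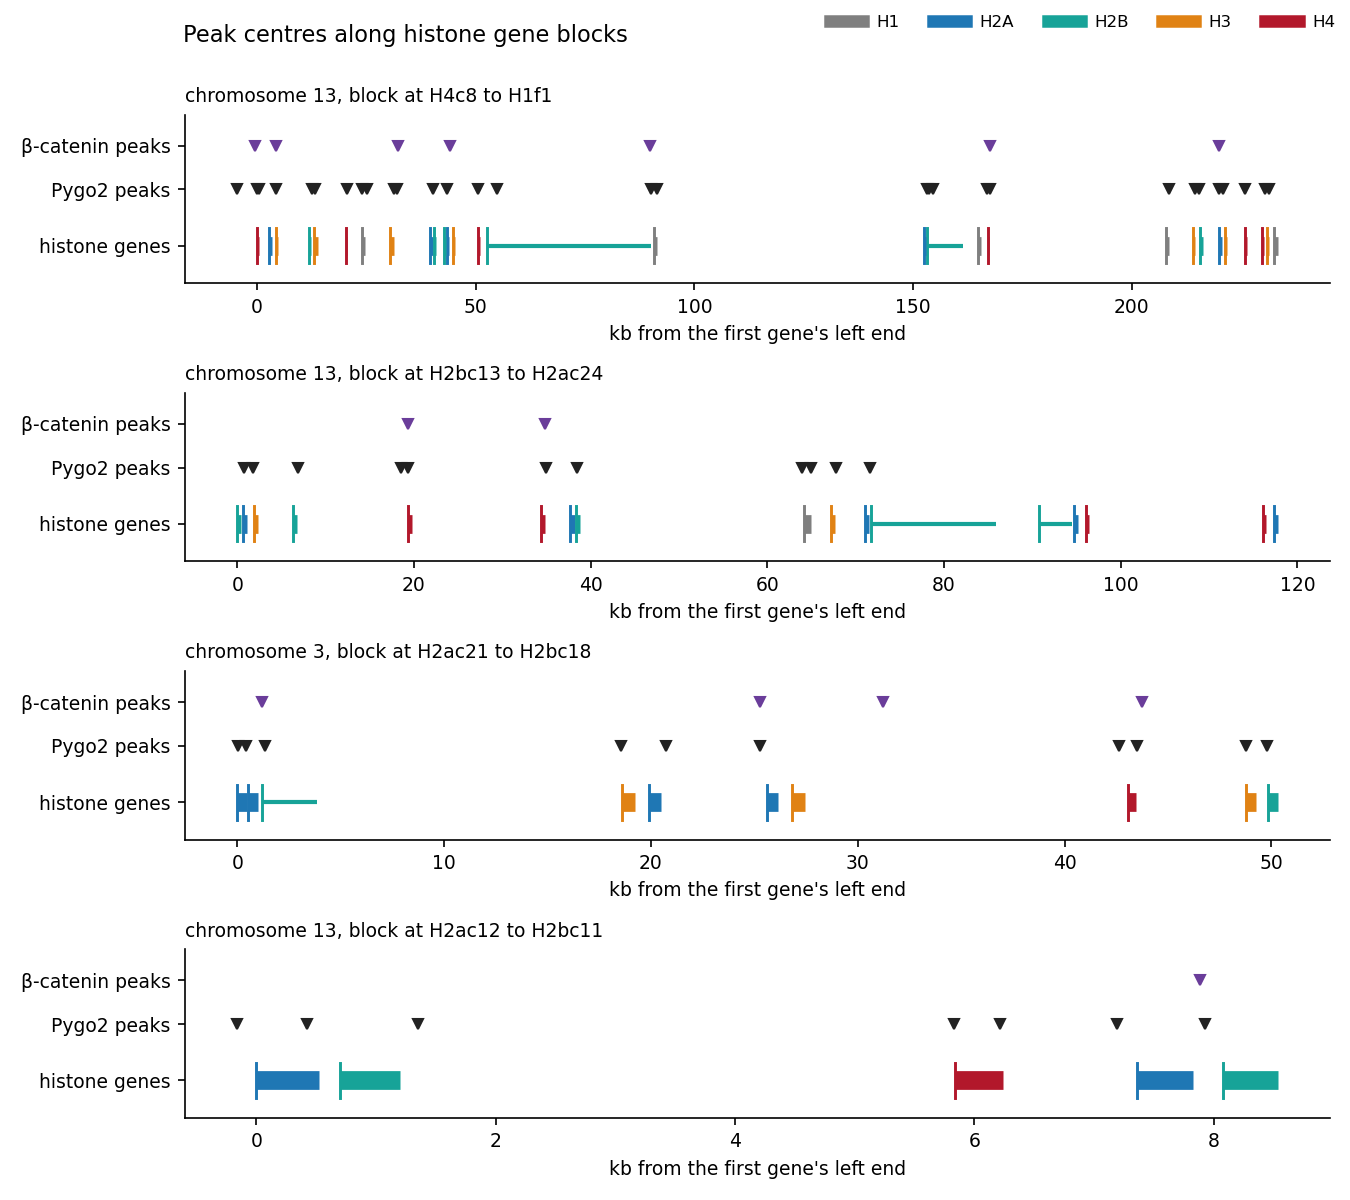
Peak centres of the β-catenin list (purple) and the Pygo2 list (black) above the histone genes, coloured by type, along 4 runs of members and their flanks; the axis is in kb from the left end of the first gene, thin bars are gene models over 1 kb, and vertical ticks mark left ends. Pygo2 peaks stand over the genes in each run, and the last 5 genes of the run from H2bc13 to H2ac24 have none.

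Where strand was known, most members, but not all, had a Pygo2 peak close to the gene start. Within 250 bp of a start, 39 of 59 members (66.1%) had a Pygo2 peak centre, compared with 12.6% of all protein-coding genes with a promoter window (2204 of 17492). For β-catenin the counts were 9 members (15.3%) and 1.15% of all genes (202). Of the 47 members with a Pygo2 centre within 1 kb of the start, 39 (83%) had it within 250 bp, and among the 2985 other genes the share was 72.5%. The median Pygo2 position was -17 bp for the members and -69 bp for the other genes, where negative is upstream. Centres lay around the start in H4 genes (median 24 bp, from -218 to 55 bp) and further upstream in H2B genes (median -154.5 bp, from -275 to 562 bp). H2A genes had a median of -81 bp and H3 genes of -75 bp. In H1 genes the median was 63.5 bp, from 12 to 848 bp, with 0 of 4 centres upstream. Of the 64 members, 59 have gene models up to 1 kb long, so that a centre at its start is also near its 3′ end; at H1f2 the centre was 848 bp downstream of the start and 124 bp beyond the gene's end.

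**Figure D4:**
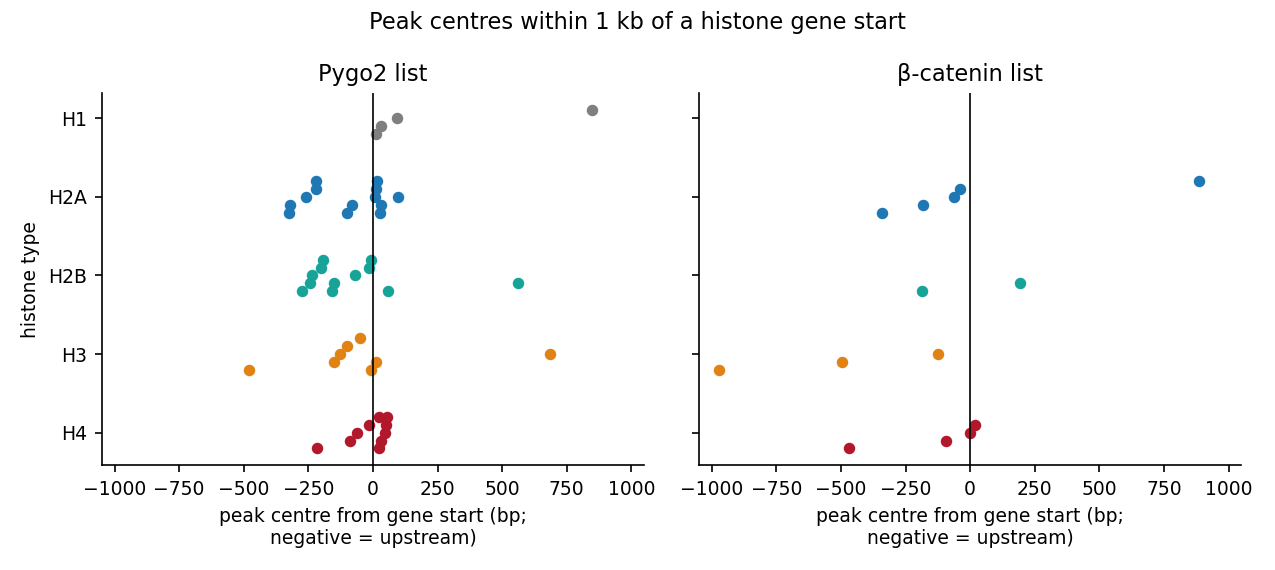
Position of the nearest peak centre relative to the gene start (bp, negative upstream) for histone genes with a centre within 1 kb of the start, by type, in the Pygo2 list (left) and the β-catenin list (right). Most Pygo2 centres lie within 250 bp of the start, those of H4 genes between -218 and 55 bp.

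H2A and H2B genes often share a promoter region from which they are transcribed in opposite directions. Among the 59 members with a known strand there were 9 such pairs with starts under 500 bp apart, each of an H2A and an H2B gene, with intervals of 163 to 280 bp. A Pygo2 peak overlapped the interval in 6 of the 9 pairs, with its centre inside the interval in 2, H2ac22/H2bc22 and H2ac11/H2bc11. At H2ac11/H2bc11 a β-catenin peak overlapped it as well, which was so in 1 of these 9 pairs. The neighbours H2ac20 and H2bc21, and H2ac6 and H2bc4, could not be counted, since H2bc21 and H2bc4 have no strand in the table used. At H2ac12/H2bc12 no Pygo2 peak overlapped the interval. The centre nearest to both starts lay inside H2ac12, at 97 bp from its start and -275 bp from the start of H2bc12. The centre nearest to an end of H2bc12 was that of another peak, 150 bp beyond its 3′ end. The pairs H2bc23/H2ac23 and H2bc1/H2ac1 had no peak.

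The overlap of the lists at histone genes was read as a share of each list's peaks there. Of the 13 β-catenin peaks within 1 kb of a member, 8 (61.5%) overlapped a Pygo2 peak by at least 1 bp, and of the 56 Pygo2 peaks 8 (14.3%) overlapped a β-catenin peak. Near other gene ends the shares were 36.7% of 360 β-catenin peaks and 4.11% of 3213 Pygo2 peaks. The 8 positions were at H4c3, H4c11, H4c12, H2ac18, H3c8, H2ac11, H2ac4 and H2bc21. Both lists have the same IgG control, and its part in the overlap was not tested.

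Peaks near histone genes came early in the lists, a trait already used in picking the family. On chromosome 13 lie 53 of the 64 members, and the part of chromosome order in these places was not tested. Of the 56 Pygo2 peaks, 33 (58.9%) were in the first 10% of the list, and the last was at position 3031, while 14.7% of the 3213 peaks near other gene ends were in the first 10%. The median position was 622.5 for peaks near members and 2559 for those near other gene ends. For β-catenin, 5 of 13 peaks (38.5%) were in the first 10%, against 3.89% of 360 peaks near other gene ends, and the median positions were 156 and 536. The first of them was the peak at H4c3, at position 39 of 1079, followed by H2ac18 (position 70), H3c8 (82) and H4c14 (85).

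**Figure D5:**
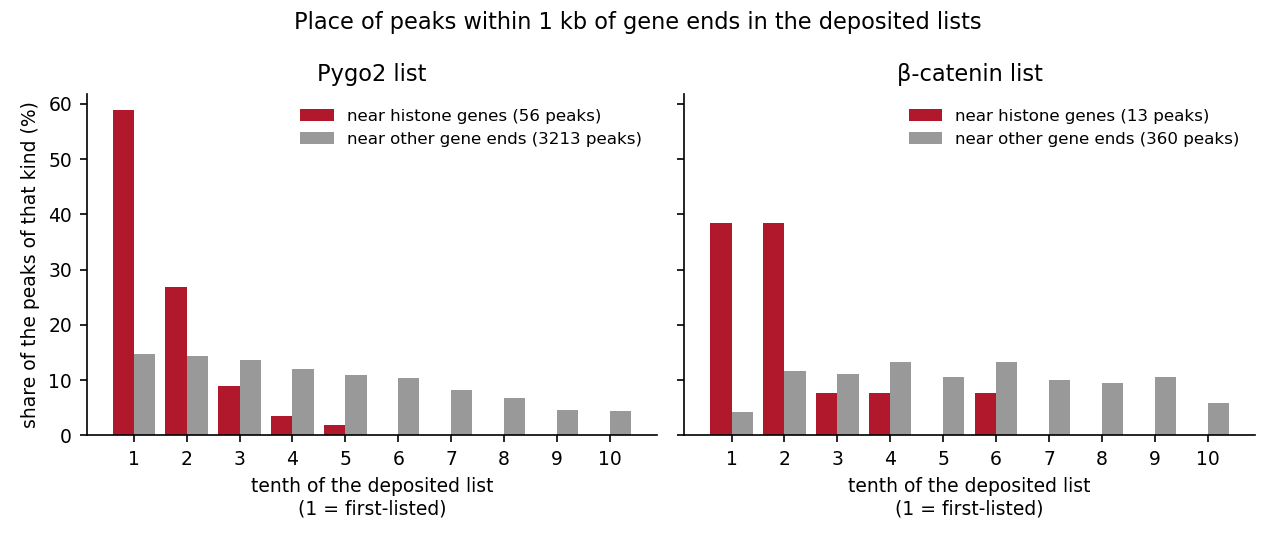
Share (%) of the peaks within 1 kb of histone genes (red) and of other gene ends (grey) in each successive 10% of the deposited Pygo2 list (left) and β-catenin list (right). In the first 10% are 58.9% of the Pygo2 and 38.5% of the β-catenin peaks near histone genes.

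The promoter windows were searched on both strands for short sequences known from histone and cell cycle promoters; the windows hold 250 bases before and 50 after each start, and 59 of the 64 members had one. The CCAAT box was present in 50 of the 59 members (84.7%) and in 37.4% of all 32851 windows of the table. It was in each of the 6 H1, 17 H2A, 14 H2B and 10 H3 members and in 3 of 12 H4 members. The TATA box TATAAA was in 34 members (57.6%) and 13.6% of all windows. The octamer ATTTGCAT, known as a site of Pou2f1 in H2B promoters, was in 7 of 14 H2B and 6 of 17 H2A members, in none of the H1, H3 and H4 members, and in 1.74% of all windows. The GC box GGGCGG was in 24 members (40.7%) and 35.7% of all windows, with 9 of the 12 H4 members among them. In the 9 divergent H2A and H2B pairs, with intervals of 163 to 280 bp, the windows of the partners overlap. The same match can thus count for both genes, here and for the letters below, so H2A and H2B counts are not independent.

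The letters CTTTGA, the core of the TCF/LEF site through which β-catenin reaches DNA, were in 6 members (10.2%) and in 16% of all windows, with 0 of 12 among the H4 members. TTTGAA, a cell cycle element that can overlap CTTTGA, was in 27 members (45.8%) and 17.9% of all windows. GGTCCG, added after the printed promoters were read, was in 11 of 12 H4 members, in 1 of 14 H2B, 1 of 10 H3 and none of the H1 and H2A members, and in 8.25% of all windows. In the H4 members its first base lay between -47 and 6 bp from the start base, which counts as 0, and H4c1, whose Pygo2 peak was the earliest-listed, lacked it in this window. H4c17 and H4c18, without a peak, carried it, as the printed H4c17 sequence shows. A match is a description and not a site, and its absence says nothing on which factor was there.

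Genes that act on histone genes, their mRNAs or their products were counted from a list chosen for that role. Of 28 genes for regulators of histone mRNA and for histone chaperones, 14 had a Pygo2 peak within 1 kb and 2 (7.14%) a β-catenin peak, beside 16.5% and 2.01% of all protein-coding genes. The 13 genes of the list with neither were Lsm10, Lsm11, Zfp473, Cpsf3, Cstf2, Ccne2, Nasp, Asf1b, Chaf1a, Chaf1b, Hira, Ubn1 and Atrx. Slbp, whose protein binds the histone mRNA stem-loop, had a Pygo2 centre 80 bp from an end at list position 294. This was the earliest place among the 14 genes, and the others ran from position 609 (Srrt) to 6125 (Ccne1). Other Pygo2 centres were 31 bp from Hinfp, an H4 promoter factor, 35 bp from Srrt, a partner of the cap-binding complex, and 155 bp from Casp8ap2, a histone locus body protein. For the 3′-end processing factors Sympk and Cpsf2 they were 99 and 82 bp away, and for Eri1, an exonuclease that trims the histone stem-loop, 45 bp. At the genes of S-phase entry they were 125 bp from Cdk2, 204 bp from Ccne1, 641 bp from E2f1 and 483 bp from E2f3. They were 127 bp from Pou2f1, the octamer factor, and 446 bp from Asf1a and 36 bp from Daxx, which encode histone chaperones. Npat, the S-phase coactivator of histone genes, had a β-catenin centre 124 bp from an end, and the nearest Pygo2 centre was 4807 bp away. At Daxx, a chaperone of histone H3.3, the β-catenin centre was 460 bp from an end.

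Of 15 histone genes outside the family, mostly replication-independent variants, 7 (46.7%) had a Pygo2 peak within 1 kb and 0 a β-catenin peak, beside 16.5% and 2.01% of all protein-coding genes. At a share of 2.01%, a count of 0 among 15 genes says little. The 7 with a Pygo2 peak were H1f0 (336 bp), H1f10 (438 bp), H2ax (202 bp), H2az2 (263 bp), H3f3a (749 bp), Cenpa (293 bp) and Macroh2a2 (661 bp). Those without were H1f7, H1f8, H2az1, H2aj, H2aw, H2bu2, H3f3b and Macroh2a1. H2aw and H2bu2, short neighbours on chromosome 11, were 15754 and 9980 bp from a Pygo2 centre. Their nearest β-catenin centre was 1976755 and 1982575 bp away. The symbol rule need not cover every replication-dependent histone gene. H2aj, which lies beside H4f16 on chromosome 6, was 3872 bp from the Pygo2 peak at that gene. The shares of these lists and of the histone genes were not compared by a test.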

How the data were processed

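The authors deposited peak lists with coordinates and a score for each peak; the deposited score is 1 throughout and was not used. Peaks were called with HOMER findPeaks in factor style on 1 library per list against the IgG library of BA1, per the file headers, at a false discovery rate of 0.001, at least 2-fold over IgG and over the surrounding 10 kb, with at most 1 tag per position. Bowtie, Bowtie2, HOMER and mm10 are named in the submitters' processing notes.

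A gene's distance is the gap between its nearer end and the closest peak centre, with 1 kb as the limit, and the calculation was checked on planted peaks. Versions were Python 3.11.15, pandas 2.3.3, NumPy 2.4.6 and Matplotlib 3.10.9. Starts and strands came from the RefSeq promoter table (GRCm38.p6). Shared runs of bases were sought on both strands against the non-overlapping windows of that table with the most short matches. Members, lists and naming rules were chosen with earlier results of these data known. Named were all H1 and H4 genes, all members with a β-catenin peak, the nearest and farthest members of the other types, and listed genes with a peak within 1 kb. Alternatives covered the window, peak edge, gene start, nearest gene, first-listed peaks and overlap. Peak tag counts and the other libraries were not analysed here.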

Additional observations from a re-analysis of the deposited data

How the results depend on the processing

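Of 46 alternative counts, 44 stayed within 1.5 times the reported count. The exceptions were the β-catenin count with wider windows, 30 members at 5 kb (3.43% of all genes) and 56 at 50 kb (10.9%), in place of 19 at 1 kb. The Pygo2 count could not pass this limit with wider windows, since 53 of 64 members already had a peak. Its staying within the limit there says little. The Pygo2 counts by type and chromosome are parts of the same 53 members and are not separate checks. The Pygo2 count, 53 members, ranged from 43 when a peak counted only for the closest gene to 62 at 50 kb, where 45.8% of all genes had a peak. It was 47 from gene starts and 53 with the list ended at its middle. The β-catenin count was 13 with closest genes, 14 from starts and 18 with the list ended at its middle. Overlapping β-catenin peaks numbered 6 when the overlap had to cover 0.5 of the shorter peak and 11 with centres within 500 bp. Chosen after seeing the data, leaving out the 11 members with shared promoter runs left 48 of 53 members with a Pygo2 and 16 with a β-catenin peak, and leaving out gene models over 1 kb left 49 and 17 of 59. No paired analysis was possible because each list is 1 library and no test was made. With minimums of 10 and 11 tags and means near them, a gene without a peak may have been below detection at this depth.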

Other observations

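The histone pseudogenes H2ac5-ps and H2ac14 inside the runs also stood by Pygo2 peaks, 17 bp and 805 bp from a centre. Each of these peaks lay within 1 kb of a coding histone gene too. The lncRNA genes in the same runs were farther from any Pygo2 centre, Gm20627 at 4745 bp, Gm33387 at 5338 bp, Gm11274 at 8499 bp and Gm33516, beside H2bc1, at 170949 bp. Also farther were the pseudogene Gm11338, at 9430 bp, and the snRNA gene Gm22452, at 21093 bp. Hfe, the single other protein-coding gene between histone genes of 1 run, was 3516 bp from a Pygo2 centre and 3481 bp from a β-catenin centre. Between the first and the last histone gene of chromosome 13 the table lists 77 tRNA genes, and 0 of them lie inside a run of histone genes.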
